A study of Homo sapiens with 12 samples.

Results

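The genes described here are the core and linker histone genes of the array: 51 of the 11963 genes that had a probe set with a single gene symbol. They were chosen by name, from older symbols beginning HIST1H to HIST4H, H1F, H2AF or H3F and from the current symbols that replaced them. Earlier results of these data were known when this was done. Each gene was read from its probe set with the highest mean. Of the 51 genes, 41 belong to the histone gene clusters, on chromosome 6 apart from H2AC25, H2BC21 and H3-4 on chromosome 1. These were 6 linker H1, 8 H2A, 11 H2B, 8 H3 and 8 H4 genes. The other 10 lie outside the clusters and are mostly the replication-independent variants: H1-10, H2AJ, H2AP, H2AX, H2AZ1, H2AZ2, H2BC12L, H3-3A, MACROH2A1 and MACROH2A2.

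RNA of MDA-MB-231, a human cell line from triple-negative breast cancer, was measured on 12 arrays in 4 groups of 3. Lentivirus delivered short hairpin RNA (shRNA) against HDAC5, a class IIa histone deacetylase, or against LSD1, a histone lysine demethylase encoded by KDM1A. Each shRNA has its own 3 arrays of cells given a scramble shRNA. The LSD1 titles tag their scramble set, and the untagged set was assigned to HDAC5 from the titles and the listed order of treatments. Culture was described only as normal for the line, and the sources used here do not give the time after transduction, drug selection or the number of hairpins per target. The labels call the replicates biological without saying what separates them, so p-values may measure only technical spread. Values are log2 array signals, and all levels below are on that scale unless a fold is named.

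Histone genes fall into a replication-dependent and a replication-independent kind. The clustered genes supply most of the H1, H2A, H2B, H3 and H4 that package newly copied DNA. They have no introns, are transcribed in S phase under NPAT, and their main mRNAs end in a stem-loop bound by SLBP in place of a poly(A) tail. Variant genes such as H2AZ1, H3-3A and MACROH2A1 have introns and polyadenylated mRNAs and are used throughout the cell cycle. Per the labels the cRNA was made with a MessageAmp kit, and kits of that kind begin from oligo(dT). Signals of clustered genes therefore come from their polyadenylated transcripts or from inefficient priming on the stem-loop form, and a change in such a signal is not a direct measure of stem-loop mRNA. Clustered histone genes are also near copies of each other, so a probe set can take signal from relatives.

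The targeted genes were read first. HDAC5 had 6.17, 6.19 and 6.50 in HDAC5 shRNA cells, against 7.56, 7.42 and 7.22 in their scramble cells, a log2 difference of -1.11 ± 0.11 (SE, limma adjusted p = 1.61e-05). KDM1A had 6.48, 6.81 and 6.60 in LSD1 shRNA cells, against 9.61, 9.76 and 9.78 in their scramble cells, a log2 difference of -3.08 ± 0.11 (SE, limma adjusted p = 6.99e-05). Both transcripts were lower on every array labelled with their hairpin. Markers of MDA-MB-231 (VIM, CD44, AXL, MSN and CAV1) had group means between 11.7 and 13.8, and of these 5 limma called 2 higher and 1 lower with HDAC5 shRNA. Among 12 markers of luminal, blood, endothelial or stromal cells, PGR, PTPRC and CDH5 lay below the lower quartile of all probe sets, and GATA3, EPCAM, PECAM1 and COL1A1 had group means from 6.53 to 9.15. With HDAC5 shRNA 2 of the 12 were called higher and 2 lower. With LSD1 shRNA limma called 0 of either marker list, and 2 higher and 3 lower at an unadjusted p under 0.05. The part of these markers in the histone values was not tested. Array medians were 6.59 to 6.65 in the HDAC5 experiment and 7.05 to 7.15 in the LSD1 experiment, so levels were not compared between the experiments. Replicates of the LSD1 experiment varied more: the median SD of a gene over 3 arrays was 0.130 for LSD1 shRNA and 0.105 for its scramble, against 0.0668 for HDAC5 shRNA and 0.0661 for its scramble.

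Upstream sequences of 7 members are shown because these genes lead the results below and stand for the 5 families and a variant. Each line gives the 150 bases that end just before the gene's start, 5′ to 3′ on the gene's strand, from RefSeq on GRCh38.p14. Capitals mark elements known from histone promoters, searched on both strands: the octamer ATTTGCAT bound by POU2F1, the box CCAAT, the TATA box TATAAA and the H1 box AAACACA. The windows are chr6:26056471-26056620 (minus strand) for H1-2, chr6:26124022-26124171 (plus strand) for H2AC6, chr6:27146859-27147008 (minus strand) for H2BC12, chr1:149886683-149886832 (minus strand) for H2BC21, chr6:26032100-26032249 (minus strand) for H3C2, chr6:26285535-26285684 (minus strand) for H4C8 and chr11:119095466-119095615 (minus strand) for H2AX.
H1-2: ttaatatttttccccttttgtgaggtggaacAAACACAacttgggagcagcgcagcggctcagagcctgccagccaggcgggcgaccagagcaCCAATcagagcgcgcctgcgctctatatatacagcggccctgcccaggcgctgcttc
H2AC6: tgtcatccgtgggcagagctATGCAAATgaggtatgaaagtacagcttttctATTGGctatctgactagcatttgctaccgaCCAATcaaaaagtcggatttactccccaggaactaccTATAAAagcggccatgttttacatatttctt
H2BC12: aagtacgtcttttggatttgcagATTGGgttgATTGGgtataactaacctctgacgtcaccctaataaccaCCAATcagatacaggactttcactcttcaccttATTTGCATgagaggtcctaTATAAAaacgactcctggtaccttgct
H2BC21: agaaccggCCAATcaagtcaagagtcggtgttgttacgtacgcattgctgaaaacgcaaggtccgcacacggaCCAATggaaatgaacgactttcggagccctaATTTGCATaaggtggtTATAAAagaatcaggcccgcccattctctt
H3C2: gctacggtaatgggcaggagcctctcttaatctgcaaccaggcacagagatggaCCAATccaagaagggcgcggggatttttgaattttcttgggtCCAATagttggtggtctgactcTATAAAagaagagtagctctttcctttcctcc
H4C8: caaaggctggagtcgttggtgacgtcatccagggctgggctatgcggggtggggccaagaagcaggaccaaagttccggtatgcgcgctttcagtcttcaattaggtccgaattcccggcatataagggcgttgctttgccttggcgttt
H2AX: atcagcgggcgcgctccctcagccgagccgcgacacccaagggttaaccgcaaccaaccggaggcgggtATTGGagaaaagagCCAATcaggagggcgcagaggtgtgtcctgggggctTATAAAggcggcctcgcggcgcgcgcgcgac

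Promoters were found for 48 of the 51 members, and the elements were counted in the 250 bases upstream of each start. The octamer occurred in 6 of 8 clustered H2A promoters and 8 of 11 clustered H2B promoters, and in none of the 6 H1, 7 H3 and 7 H4 promoters or the 9 outside the clusters. Among all 27305 promoters of the table it occurred in 1.67%. In both H2BC12 and H2BC21 it begins 46 bases before the start, and in H2AC6 it begins 130 bases before it. The H1 box was present in 6 of 6 clustered H1 promoters and in no other member, against 4.98% of all promoters. The letters CCAAT occurred in 41 of 48 members, among them only 2 of 7 H4 genes, against 33.0% of all promoters. TATAAA occurred in 30 of 48 members, against 11.2%. The letters TTTNGCGC of an E2F-type site occurred in 9 of 48 members, against 1.51%. None of these motifs contains another, though matches may overlap at their ends. None of these letters is in the printed H4C8 window. A match describes the sequence and does not show binding.

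With HDAC5 shRNA, more histone genes were called higher than lower. Of the 51 members, 26 (51.0%) were called higher and 2 (3.92%) lower at a limma adjusted p under 0.05 over all 11963 genes. The background of this comparison is high: 21.3% of all genes were called higher and 23.2% lower, 44.5% in all. The 41 clustered genes held 20 higher calls and 0 lower calls in limma (21 higher and 0 lower at an unadjusted p under 0.05), and their median log2 difference was 0.17, beside -0.02 for all genes. With dim probe sets left out the median was 0.65 over the 22 clustered genes that remained. Values on all 3 HDAC5 shRNA arrays lay above all 3 scramble arrays for 27 members (52.9%), against 24.1% of all genes. They lay below for 3 members (5.88%), against 26.6%. Of the 20 clustered genes called higher, 9 had a fitted change of 2-fold or more, H3C2 and H4C8 among them from scramble levels near background. Bulk RNA cannot tell a larger share of cells in S phase from more histone RNA per cell.

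**Figure D1:**
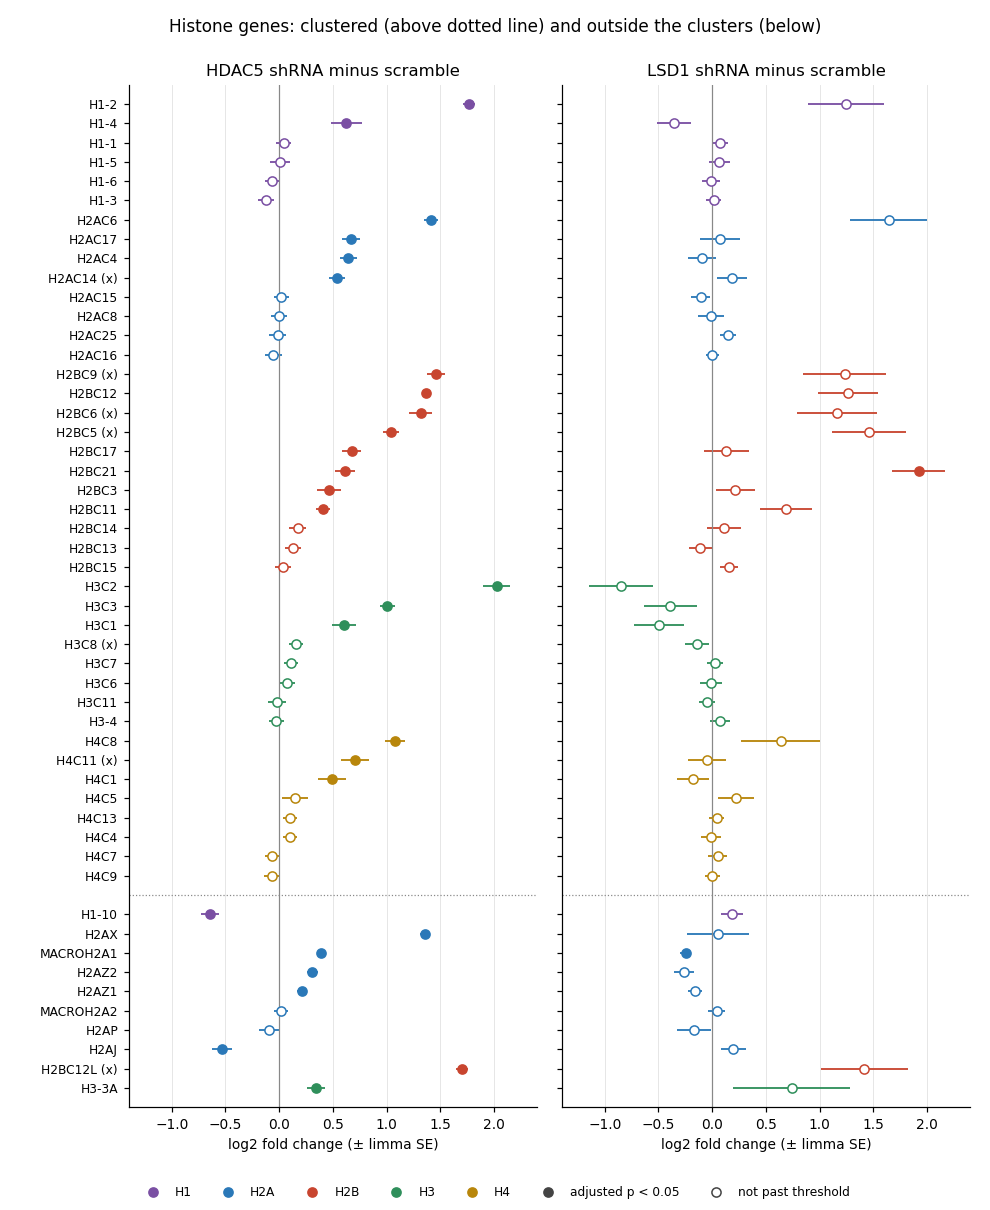
Log2 difference of each of the 51 histone genes (rows) with HDAC5 shRNA and with LSD1 shRNA against the scramble arrays of the same experiment; points are means of 3 against 3 arrays and bars are limma SEs, filled points are called genes, and (x) marks an _x_at probe set. With HDAC5 shRNA the called clustered genes lie to the right of 0, H3C2 farthest at 2.02, and with LSD1 shRNA the bars are wider for 45 of the 51 genes and only H2BC21 and MACROH2A1 were called.

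H2B genes, whose protein pairs with H2A in the nucleosome, had the most calls with HDAC5 shRNA, 8 of 11, and a median log2 difference of 0.61. The share of all genes called higher, 21.3%, stands beside this and the family counts below. H2BC12 had 11.66, 11.73 and 11.69 in HDAC5 shRNA cells, against 10.31, 10.39 and 10.28 in scramble cells, which is 2.58-fold (log2 1.37 ± 0.04 SE, limma adjusted p = 9.94e-09). H2BC9 had 7.03, 7.08 and 6.94 in HDAC5 shRNA cells, against 5.62, 5.66 and 5.39 in scramble cells (log2 1.46 ± 0.08 SE, limma adjusted p = 4.22e-07). H2BC6 had 8.16, 8.14 and 8.27 in HDAC5 shRNA cells, against 6.97, 6.61 and 7.05 in scramble cells (log2 1.32 ± 0.11 SE, limma adjusted p = 4.07e-06). Every HDAC5 shRNA array stood above every scramble array for these genes. H2BC5 had 9.17, 9.03 and 9.16 in HDAC5 shRNA cells, against 8.15, 7.91 and 8.17 in scramble cells, a 2.06-fold increase. The probe sets used for H2BC5, H2BC6 and H2BC9 are of the _x_at kind, which can match related genes. Smaller increases were called for H2BC17 (log2 0.67), H2BC21 (0.61), H2BC3 (0.46) and H2BC11 (0.41), while H2BC13, H2BC14 and H2BC15 were not called and differed by at most 0.17.

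In the H2A family 4 of 8 clustered genes were called higher. H2AC6 had 8.82, 8.73 and 8.83 in HDAC5 shRNA cells, against 7.34, 7.50 and 7.30 in scramble cells, which is 2.66-fold (log2 1.41 ± 0.07 SE, limma adjusted p = 9.96e-08). H2AC17, H2AC4 and H2AC14, the last on an _x_at probe set, rose by 0.67, 0.64 and 0.54. The other 4, H2AC15, H2AC16, H2AC25 and H2AC8, differed by at most 0.05 in size, and 3 of them were dim. Neighbouring H2A and H2B genes that start back to back were measured as 3 pairs. H2AC17 and H2BC17, whose starts are 240 bases apart, both differed by 0.67. H2AC14 and H2BC14, 245 bases apart, differed by 0.54 and 0.17, and H2AC15 and H2BC15, 194 bases apart, by 0.02 and 0.04.

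The largest fitted log2 difference of a histone gene was in H3, the core histone that carries the lysines LSD1 acts on. H3C2 had 5.79, 5.96 and 5.94 in HDAC5 shRNA cells, against 3.85, 4.17 and 3.60 in scramble cells, a log2 difference of 2.02 ± 0.13 (SE, limma adjusted p = 8.08e-07). The groups are far apart, but all 3 scramble values lie below 4.63, the lower quartile of all probe sets, where signals are near background, so the size of the difference is uncertain. H3C3 had 6.42, 6.42 and 6.46 in HDAC5 shRNA cells, against 5.53, 5.40 and 5.35 in scramble cells, which is 2.01-fold. H3C1 rose by 0.60 from a dim probe set. These 3 were the only called members among 8 clustered H3 genes, and the largest difference of an uncalled one was 0.15, for H3C8.

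Among H4 genes 3 of 8 were called higher, beside 21.3% of all genes. H4C8 had 5.52, 5.58 and 5.59 in HDAC5 shRNA cells, against 4.36, 4.39 and 4.71 in scramble cells, a log2 difference of 1.08 ± 0.10 (SE, limma adjusted p = 8.15e-06). Its scramble mean of 4.49 also lies below that quartile, so its size is uncertain too. H4C11, on an _x_at probe set, had 7.49, 7.36 and 7.52 in HDAC5 shRNA cells, against 6.97, 6.87 and 6.40 in scramble cells, a log2 difference of 0.71. H4C1 differed by 0.49 (limma adjusted p = 0.0106), and its call was lost without scramble array 2 or 3 or without HDAC5 shRNA array 1 or 2 (limma adjusted p = 0.0543 to 0.0586). Of the linker histones, which bind the DNA between nucleosomes, 2 of 6 clustered genes were called higher, beside the same 21.3%. H1-2 had 9.92, 9.78 and 9.95 in HDAC5 shRNA cells, against 8.09, 8.15 and 8.13 in scramble cells, which is 3.40-fold (log2 1.77 ± 0.06 SE, limma adjusted p = 1.25e-08). H1-4 rose by 0.62. H1-1, H1-3, H1-5 and the testis-type H1-6 were not called, with differences from -0.13 to 0.04.

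**Figure D2:**
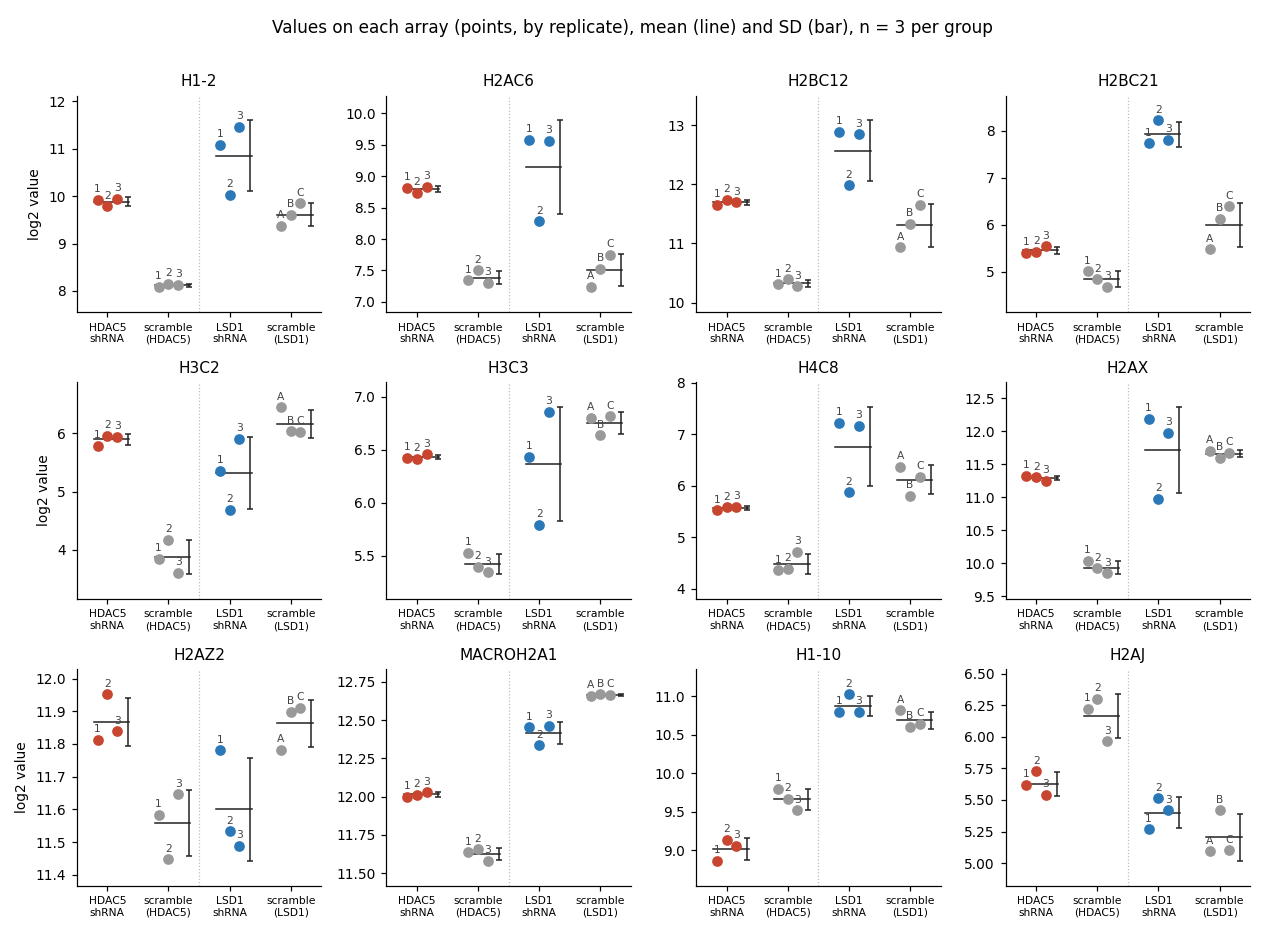
Log2 value of 12 histone genes on every array (points, labelled by replicate), with the mean (line) and SD (bar) of each group of 3; the vertical scale differs between panels and the 2 experiments are not on a common scale. In the HDAC5 experiment the groups separate in every panel, and in the LSD1 experiment LSD1 shRNA array 2 lies apart from arrays 1 and 3 in most panels.

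Many uncalled clustered genes had little signal. Dim here means a mean below the lower quartile of all probe sets, 4.63 in the HDAC5 experiment. Of the 21 clustered genes not called with HDAC5 shRNA, 15 were dim, and the other 6 were H1-3, H1-6, H2AC25, H3C6, H3C8 and H4C9. Among the 20 called genes, 4 were dim (H2BC11, H2BC17, H3C1 and H4C1), and with H3C2 and H4C8 the scramble mean was below this limit for 6. A probe set near background says little about whether its gene changed.

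Outside the clusters 6 of 10 genes were called higher and 2 lower with HDAC5 shRNA, and all 8 separated the groups completely. Over all genes 21.3% were called higher and 23.2% lower, so the 2 lower calls are not a result about these variants. All HDAC5 shRNA arrays lay above the scramble arrays for 24.1% of all genes and below for 26.6%. H2AX, the H2A form phosphorylated beside DNA breaks, had 11.32, 11.31 and 11.25 in HDAC5 shRNA cells, against 10.04, 9.93 and 9.85 in scramble cells, which is 2.56-fold (log2 1.36 ± 0.05 SE, limma adjusted p = 3.14e-08). H2BC12L, a relative of H2BC12 on chromosome 21 read by an _x_at probe set, had 9.75, 9.65 and 9.76 in HDAC5 shRNA cells, against 8.02, 8.10 and 7.94 in scramble cells, which is 3.25-fold. Signal from H2BC12 itself cannot be told apart from it there. Much smaller increases were called for replication-independent variants. MACROH2A1, a large H2A form of repressed chromatin, had 11.9997, 12.0136 and 12.0293 in HDAC5 shRNA cells, against 11.6376, 11.6565 and 11.5815 in scramble cells (log2 0.39 ± 0.03 SE, limma adjusted p = 5.12e-06). H3-3A, which encodes the replication-independent H3.3, had 6.88, 6.93 and 6.96 in HDAC5 shRNA cells, against 6.77, 6.48 and 6.50 in scramble cells, a difference of 0.34. The H2A.Z genes, whose protein sits beside active promoters, were called higher as well.

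H2AZ2 had 11.81, 11.95 and 11.84 in HDAC5 shRNA cells, against 11.58, 11.45 and 11.65 in scramble cells, a log2 difference of 0.31. H2AZ1 had 12.87, 13.02 and 12.85 in HDAC5 shRNA cells, against 12.71, 12.64 and 12.76 in scramble cells, a log2 difference of 0.21 (limma adjusted p = 0.00426). Both lower calls were variants too. H1-10, a linker histone expressed outside S phase, had 8.86, 9.14 and 9.05 in HDAC5 shRNA cells, against 9.80, 9.66 and 9.52 in scramble cells, which is 1.56-fold lower (log2 -0.64 ± 0.08 SE, limma adjusted p = 0.000129). H2AJ, an H2A form known to accumulate in senescent cells, had 5.62, 5.73 and 5.54 in HDAC5 shRNA cells, against 6.22, 6.30 and 5.97 in scramble cells (log2 -0.53 ± 0.09 SE, limma adjusted p = 0.000997). No HDAC5 shRNA array of H1-10 or H2AJ reached the scramble arrays. MACROH2A2 averaged 4.77 ± 0.02 in HDAC5 shRNA cells and 4.75 ± 0.04 in scramble cells (SD, n = 3 each), and H2AP 4.08 ± 0.16 and 4.17 ± 0.13 in the same order of groups, and neither was called.

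Further probe sets gave a partial check on these genes, in a fit of all 22215 non-control probe sets in which 19.0% were called higher and 19.2% lower with HDAC5 shRNA. H2AX had 4 probe sets: 3 were called higher, with log2 differences of 1.36, 1.03 and 0.75, and an _x_at set differed by 0.02 and was not. The 3 sets of H2AZ2 (0.31, 0.61 and 0.59), the 2 of H2AZ1 (0.21 and 0.30) and the 2 of H2BC5 (1.04 and 1.34) were all called higher. Those of MACROH2A1 disagreed: 0.39 and 0.54 were called higher and another set, at -0.22, lower, and they may match different transcripts of the gene. Another 29 probe sets list several histone genes and were not assigned to any gene. Of these 20 were called higher and 1 lower with HDAC5 shRNA. The largest belonged to H2AC18 and H2AC19 (log2 1.62 and 1.52 on 2 of their 3 sets), to a set listing 10 clustered H3 genes (1.26) and to a set listing H2BC4, H2BC6, H2BC7, H2BC8 and H2BC10 (1.23). Of 8 sets listing H3-3B with H3-3A, 6 were called higher, by at most 0.31, and 1 lower, at -0.24.

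Genes that make and handle histones were described from lists, as counts beside the 21.3% higher and 23.2% lower of all genes. Of 22 measured genes of histone mRNA biogenesis, 17 were called higher and 1 lower with HDAC5 shRNA, with a median log2 difference of 0.32. SLBP, which binds the stem-loop, had 11.15, 11.19 and 11.22 in HDAC5 shRNA cells, against 10.50, 10.52 and 10.54 in scramble cells (log2 0.67 ± 0.04 SE, limma adjusted p = 2.84e-07). NPAT, the coactivator of clustered histone genes, differed by 0.31, and CASP8AP2, a partner needed for their expression, by 0.53. CCNE2, a cyclin of the kinase that phosphorylates NPAT, had the largest change of the list, 3.44. CDK2 differed by 0.85 and CCNE1 by 0.77, both called higher. NCBP1 of the cap-binding complex rose by 0.90 and its partner NCBP2 fell by 0.30. Of 31 histone chaperones and carriers, 20 were called higher and 3 lower (median 0.29). MCM2, a helicase subunit that also carries histones, differed by 1.66, ASF1B by 1.54, and CHAF1A and CHAF1B, which deposit H3 and H4 on new DNA, by 1.39 and 1.17. ATRX, which places H3.3 with DAXX, was 0.41 lower. All 21 measured S phase genes were called higher (median 1.52), among them GINS2 at 2.65 and E2F8 at 2.61.

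Both the S phase genes and the clustered histone genes separated the HDAC5 shRNA arrays from the scramble arrays. Within each group of 3 arrays the scores differed too little for their order to be read. As mean deviations from the scramble mean, S phase genes stood at 1.51, 1.51 and 1.54 on the HDAC5 shRNA arrays and between -0.04 and 0.06 on the scramble arrays. Clustered histone genes stood at 0.49, 0.47 and 0.47 on the HDAC5 shRNA arrays and between -0.02 and 0.01 on the scramble arrays. The part of the S phase genes in the histone change was not tested.

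**Figure D3:**
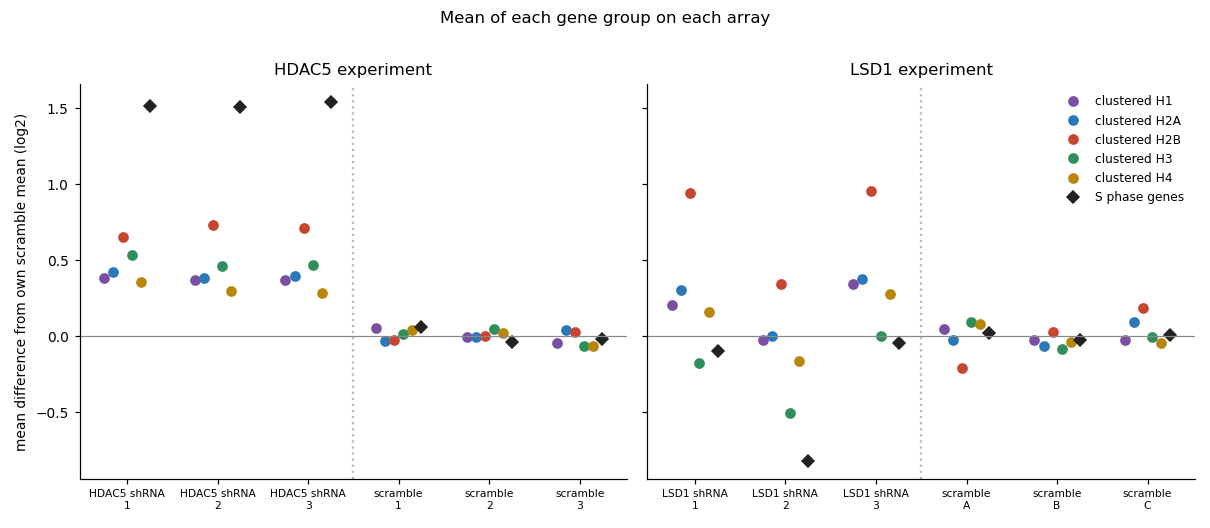
Mean deviation from the scramble mean (log2) on each of the 12 arrays for the 5 families of clustered histone genes (circles) and the S phase genes (diamonds); each point is the mean over the genes of a group on 1 array. The HDAC5 shRNA arrays lie together above 0 for every family, and LSD1 shRNA array 2 lies below arrays 1 and 3, at -0.82 against -0.10 and -0.04 for S phase genes.

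With LSD1 shRNA, few histone genes passed the threshold: H2BC21 was called higher and MACROH2A1 lower. That is 2 of 51 members (3.92%), near the 4.92% of all genes called in this comparison (2.93% higher and 2.0% lower), and so is not a result about histone genes. The clustered genes had a median log2 difference of 0.05, beside 0.01 for all genes. H2BC21 had 7.74, 8.22 and 7.81 in LSD1 shRNA cells, against 5.48, 6.13 and 6.40 in scramble cells, which is 3.79-fold (log2 1.92 ± 0.25 SE, limma adjusted p = 0.0121). This H2B gene of the smaller cluster on chromosome 1 is known to give polyadenylated transcripts as well. Its call was lost without scramble array B or without LSD1 shRNA array 1, with adjusted p = 0.061 and 0.0533 in limma. MACROH2A1 had 12.45, 12.34 and 12.46 in LSD1 shRNA cells, against 12.66, 12.67 and 12.66 in scramble cells (log2 -0.25 ± 0.05 SE, limma adjusted p = 0.0422). Its call was lost without any of scramble arrays A, B and C or LSD1 shRNA arrays 1 and 3 (limma adjusted p = 0.0834 to 0.171). Another of its probe sets was also called lower (-0.56), and the remaining set differed by -0.42 and was not.

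All 3 LSD1 shRNA arrays lay above all 3 scramble arrays for 8 members (15.7%), close to the 14.3% of all genes, and below for 4 members (7.84%), against 12.7%. The 8 were H1-2, H2AC6, H2BC5, H2BC9, H2BC11, H2BC12, H2BC21 and H2BC12L, and 5 of the 11 clustered H2B genes were among them. H2AC6 had 9.58, 8.28 and 9.57 in LSD1 shRNA cells, against 7.24, 7.53 and 7.74 in scramble cells (log2 1.64 ± 0.36 SE, limma adjusted p = 0.0518). H2BC12 had 12.88, 11.98 and 12.84 in LSD1 shRNA cells, against 10.93, 11.34 and 11.66 in scramble cells (log2 1.26 ± 0.28 SE, limma adjusted p = 0.0554). H1-2 had 11.08, 10.03 and 11.46 in LSD1 shRNA cells, against 9.37, 9.61 and 9.85 in scramble cells (log2 1.24 ± 0.35 SE, limma adjusted p = 0.0987). In each of these genes LSD1 shRNA array 2 was nearest the scramble arrays. H2BC5 differed by 1.46, H2BC12L by 1.41, H2BC9 by 1.23 and H2BC11 by 0.68, none of them called. H2BC6, with a difference of 1.16, overlapped between the groups.

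The 3 H3 genes called higher with HDAC5 shRNA had differences below 0 with LSD1 shRNA, none of them called. H3C2 had 5.36, 4.69 and 5.91 in LSD1 shRNA cells, against 6.45, 6.04 and 6.03 in scramble cells (log2 -0.85 ± 0.30 SE, limma adjusted p = 0.16). H3C1 differed by -0.49 and H3C3 by -0.39, and the groups overlapped for both. H4C8 had 7.23, 5.87 and 7.17 in LSD1 shRNA cells, against 6.37, 5.81 and 6.18 in scramble cells, a difference of 0.64 that was not called. Of the variants, H2AX had 12.19, 10.98 and 11.98 in LSD1 shRNA cells, against 11.71, 11.60 and 11.68 in scramble cells, so that arrays 1 and 3 stood above the scramble arrays and array 2 below them.

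H2AZ2 had 11.78, 11.53 and 11.49 in LSD1 shRNA cells, against 11.78, 11.90 and 11.91 in scramble cells, a log2 difference of -0.26. H2AZ1 had 13.15, 12.98 and 13.22 in LSD1 shRNA cells, against 13.23, 13.30 and 13.30 in scramble cells, a log2 difference of -0.16. Neither was called, although the LSD1 shRNA arrays were the lower ones in both, with the groups nearly touching for H2AZ2. H3-3A had 8.37, 8.21 and 10.39 in LSD1 shRNA cells, against 8.32, 8.18 and 8.25 in scramble cells, so its difference of 0.74 rests on LSD1 shRNA array 3. That array did not stand apart on the 8 probe sets listing H3-3A with H3-3B. H1-10 (10.80, 11.03 and 10.80 in LSD1 shRNA cells, against 10.82, 10.61 and 10.64 in scramble cells) and H2AJ (5.27, 5.51 and 5.42, against 5.09, 5.42 and 5.10 in the same order) overlapped between the groups. MACROH2A2 averaged 5.33 ± 0.05 in LSD1 shRNA cells and 5.29 ± 0.11 in scramble cells (SD, n = 3 each). Of the 29 probe sets listing several histone genes limma called 0 with LSD1 shRNA (9 higher and 1 lower at an unadjusted p under 0.05), where 2.11% of all probe sets were called higher and 1.7% lower. For 8 of them all LSD1 shRNA arrays lay above the scramble arrays, and for 1 they lay below. Over all genes these shares were 14.3% and 12.7%, and they were not computed over all probe sets.

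LSD1 shRNA array 2 stood apart from arrays 1 and 3 in the histone genes. It was the lowest LSD1 shRNA array for 37 of 51 members (72.5%), against 43.9% of all genes. Clustered histone genes deviated from the scramble mean by 0.34, -0.04 and 0.43 on LSD1 shRNA arrays 1, 2 and 3. For H2B genes the same values were 0.94, 0.35 and 0.95, and for H3 genes -0.18, -0.51 and -0.00. S phase genes stood at -0.10, -0.82 and -0.04 on these arrays. Like the clustered histone genes, they were lowest on array 2 and highest on array 3. The part of the S phase genes in the histone values was not tested. Without array 2, limma called 12 members (23.5%), against 6.57% of all genes (3.58% higher and 2.99% lower): H1-2, H2AC6, H2AX, H2BC5, H2BC6, H2BC9, H2BC11, H2BC12, H2BC12L, H2BC21 and H4C8 higher and MACROH2A1 lower. H2AC6 then differed by 2.07 ± 0.16 (SE, limma adjusted p = 0.00351). Leaving out an array picked for its values in this way shows what the calls rest on and is not a second test. Without scramble array B limma called 0 members (9 higher and 2 lower at an unadjusted p under 0.05), and without LSD1 shRNA array 1 also 0 (6 higher and 2 lower).

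Few genes of the surrounding lists were called with LSD1 shRNA. Of the 22 histone mRNA biogenesis genes limma called 0 (2 higher and 3 lower at an unadjusted p under 0.05), with a median log2 difference of -0.08. Of the 21 S phase genes limma also called 0 (0 higher and 2 lower at an unadjusted p under 0.05), with a median of -0.34, or -0.08 without LSD1 shRNA array 2. SLBP had 11.42, 11.13 and 11.53 in LSD1 shRNA cells, against 11.75, 11.69 and 11.73 in scramble cells, a difference of -0.37 that was not called. NPAT differed by 0.36 and CASP8AP2 by -0.36, neither called. Of the 31 chaperones only RBBP4, a histone-binding subunit of several chromatin complexes, was called, at -0.41 (limma adjusted p = 0.0437), and the list's median was -0.11. Its call was lost whichever of the 6 arrays was left out (limma adjusted p = 0.0599 to 0.19), and without LSD1 shRNA array 2 limma called 1 other gene of the list higher, SET, named after its value was seen.

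The change with HDAC5 shRNA minus the change with LSD1 shRNA was tested as a contrast in a fit of all 12 arrays. Such a fit takes 1 variance per gene over both experiments, although replicates of the LSD1 experiment varied more. Under that pooling calls over all genes went from 5319 to 3512 with HDAC5 shRNA and from 589 to 2297 with LSD1 shRNA. The calls of the contrast carry this limit. The contrast was called for 14 of 51 members (27.5%), near the 31.8% of all genes (15.7% higher and 16.1% lower), so the count is not a result about histone genes. Without LSD1 shRNA array 2 it was called for 16 members (31.4%), against 32.2% of all genes. The members named by the fit of all 12 arrays fell on 2 sides. The change was more positive with HDAC5 shRNA for H3C2 (2.88 ± 0.35 SE, limma adjusted p = 0.000142), H3C3 (1.40) and H3C1 (1.10), which were higher with HDAC5 shRNA and had values below 0 with LSD1 shRNA. The same held for H1-4 (0.98), H2AC4 (0.74), H4C11 (0.75) and H4C1 (0.67), and for the variants MACROH2A1 (0.64), H2AZ2 (0.57) and H2AZ1 (0.37). H2AX (1.30) was higher with HDAC5 shRNA and differed by 0.05 with LSD1 shRNA. The calls of H4C1 and H4C11 were lost when single arrays of either experiment were left out (limma adjusted p up to 0.0904 and 0.0777). The change was more negative with HDAC5 shRNA for H2BC21 (-1.31 ± 0.28 SE, limma adjusted p = 0.00392), H1-10 (-0.83) and H2AJ (-0.73). H2BC21 was higher in both comparisons, by 0.61 with HDAC5 shRNA and by 1.92 with LSD1 shRNA.

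**Figure D4:**
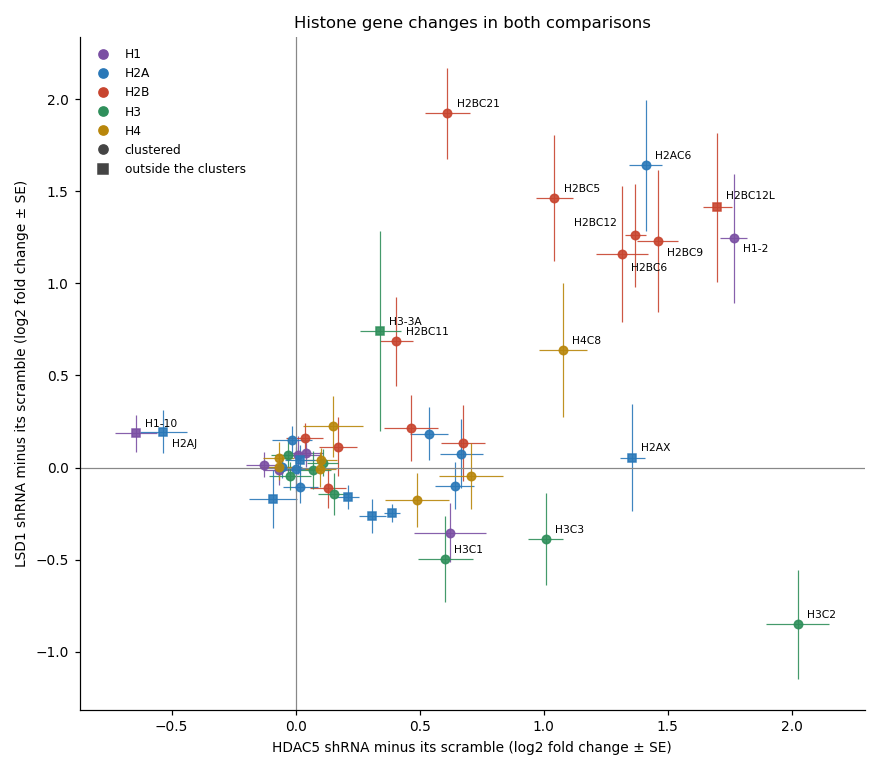
Log2 difference of each histone gene with HDAC5 shRNA (horizontal axis) and with LSD1 shRNA (vertical axis), each against its own scramble arrays; bars are limma SEs, colours are families and squares are genes outside the clusters. H2AC6, H1-2 and a group of H2B genes lie at the upper right, H2BC21 is highest on the vertical axis at 1.92, and H3C2 lies at 2.02 and -0.85.

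Of the 20 clustered genes called higher with HDAC5 shRNA, 7 (35.0%) had all LSD1 shRNA arrays above the scramble arrays. The share over all genes was 14.3%, but the share among all genes called higher with HDAC5 shRNA was not computed. The shares are therefore not of like genes, and no result about histone genes is drawn from them. Another 7 of the 20 had a negative difference with LSD1 shRNA, a share not computed over all genes. Among the 7 with separated groups, H2BC5 and H2BC9 were read from _x_at probe sets. The 7 with separated groups were H1-2, H2AC6, H2BC5, H2BC9, H2BC11, H2BC12 and H2BC21, with log2 differences of 0.41 to 1.77 with HDAC5 shRNA and 0.68 to 1.92 with LSD1 shRNA. For 6 of them the difference between the comparisons was not called, which does not show that they changed alike: H1-2 differed by 0.52 ± 0.38 (SE) and H2AC6 by -0.23 ± 0.39 (SE). The H2B gene H2BC9 and its neighbour H3C7, whose starts are 979 bases apart, differed by 1.46 and 0.11 with HDAC5 shRNA and by 1.23 and 0.03 with LSD1 shRNA, and H3C7 was dim in both experiments. Among the clustered promoters, the octamer letters occurred in 11 of 19 genes called higher with HDAC5 shRNA and in 3 of 20 not called, and H2A and H2B genes made up 12 of the 20 calls. In the same order TATAAA occurred in 15 of 19 and 11 of 20, CCAAT in 17 of 19 and 17 of 20, the E2F-type letters in 5 of 19 and 4 of 20, and the H1 box in 2 of 19 and 4 of 20. Of the 21 clustered genes not called, 15 were dim, and only H2A and H2B promoters held the octamer. These counts therefore do not separate the calls from family or signal level.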

How the data were processed

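The deposited log2 values, 1 per probe set and array, were made with RMA (affy), per the submitters' processing notes. The sources used here do not give versions or which arrays were processed together. RMA removes changes shared by most transcripts and compresses low signals. All 12 value columns were matched to samples. Of 22277 probe sets, 62 controls were left out, 19064 had a single symbol, 1043 several and 2108 none. Symbols were updated to RefSeq GRCh38.p14 for 19052 sets. The highest-mean set per gene left 11963 genes, with no filter on dim sets. The 51 histone genes rest on 60 such sets, and 7 genes on _x_at sets. Comparisons within each experiment used lmFit and eBayes with trend in limma 3.58.1 (R 4.3.3), adjusted by Benjamini-Hochberg at 0.05. SEs are limma's and SDs are over 3 arrays. An exact permutation test of 3 against 3 arrays cannot go below p = 0.1. Scripts were tested on simulated data. The members, the 3 gene lists (histone mRNA biogenesis, chaperones, S phase) and the marker lists were chosen with earlier results of these data known. Genes named with every array's value are the 10 largest calls among clustered genes, called variants and fixed variants, and further array values were added after they were seen. Named list genes are the largest called changes, with the lower calls NCBP2 and ATRX and with SLBP, NPAT and CASP8AP2. The HDAC5 replicate numbers do not pair arrays (correlations -0.047, -0.206 and -0.145). Alternatives were filters, probe set choice, scaling, arrays fitted and arrays left out. The number of arrays limits the precision.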

Additional observations from a re-analysis of the deposited data

Results flagged for a closer look

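The change with HDAC5 shRNA minus the change with LSD1 shRNA passed the threshold of limma (12-array fit) for 14 histone genes. Values on the log2 scale were 2.88 for H3C2, 1.4 for H3C3, 1.3 for H2AX, 1.1 for H3C1, 0.98 for H1-4, 0.75 for H4C11, 0.74 for H2AC4, 0.67 for H4C1, 0.64 for MACROH2A1, 0.57 for H2AZ2 and 0.37 for H2AZ1. They were -1.31 for H2BC21, -0.83 for H1-10 and -0.73 for H2AJ. The share of histone genes called this way, 27.5%, lay near the 31.8% of all genes. Without LSD1 shRNA array 2 the difference was called for 16 members, near the share of all genes (32.2%), and those below 0 then included H2AC6 (-0.66), H2BC5 (-0.80) and H2BC11 (-0.56).

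Probe sets that list several histone genes were outside the comparisons of genes. With HDAC5 shRNA 20 of these 29 sets were called higher in limma, against 19.0% of all non-control probe sets, and 1 was called lower.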

How the results depend on the processing

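With HDAC5 shRNA the histone counts stayed within 1.5 times of 20, 6 and 2 under every alternative run: clustered genes called higher numbered 15 without _x_at probe sets and 16 with dim sets left out, and leaving out an array gave 19 to 20 of them, 6 other genes higher and 2 lower. Of 410 values of called members under alternatives 404 kept their side of the threshold, 6 lost it (of H4C1, H2BC11 and H3-3A) and none reversed. Calls over all genes fell to 3512 in 1 fit of 12 arrays, against 5319. The replicate block gave 4869 calls over all genes and the same 20, 6 and 2 histone counts, and its numbers share no known pairing. With dim probe sets left out 22 clustered genes remained, 16 of them called higher, against 26.6% of the 9626 genes left. The median log2 difference of these clustered genes was 0.65. Without _x_at histone probe sets, calls over all genes in either direction were 5314.

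With LSD1 shRNA the counts moved. Clustered genes called higher numbered 1, against 2 with dim sets left out, 2 after quantile normalization, 3 with array medians subtracted, 8 in 1 fit of 12 arrays, 2 without scramble B and LSD1 shRNA 2 together, and 0 to 9 when arrays were left out singly, the 9 without LSD1 shRNA array 2. Genes outside the clusters called lower numbered 1, against 0 with the mean of probe sets, without a mean-variance trend, with array medians subtracted and without scramble B and LSD1 shRNA 2 together, 2 in 1 fit of 12 arrays, and 0 to 1 with arrays left out. Calls over all genes were 589, against 2297 in 1 fit of 12 arrays, 116 without both arrays, and 104 to 786 with arrays left out. In the 1 fit of 12 arrays 23.5% of the 51 members were called, near the 19.2% of all genes. Of 176 values of the 12 members whose groups did not overlap, 21 gained a call, 12 lost it and none reversed. These counts leave out H2BC6, H2AX and H4C8, which gained a call without LSD1 shRNA array 2. The difference between the comparisons was called for 14 members and for 12 to 17 with arrays left out. The cause was not tested. Signals of dim probe sets limit what can be read for 19 of the 41 clustered genes in either experiment.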

Other observations

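In the LSD1 experiment deviations from the group means were shared across the labels. Over all 22277 probe sets, controls included, LSD1 shRNA array 2 correlated at 0.572 with scramble array B. LSD1 shRNA arrays 1 and 3 correlated at 0.332 and 0.346 with scramble array A. The labels give letters to the scramble arrays and numbers to the others and pair neither. These correlations are a description over probe sets, which are not independent. H3-3A on LSD1 shRNA array 3, at 10.39, stood apart from 8.18 to 8.37 on the other arrays of that experiment. This was seen on its single-symbol probe set only. On each of the 8 sets listing H3-3A with H3-3B, array 3 lay within the range of the other arrays.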
